A study of Ovis aries with 26 samples.

Results

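Expanded blastocysts of sheep were compared with 2-cell embryos to set RNA that the egg had stored against RNA of an embryo that transcribes its own genome. The comparison used 8 of the 26 libraries of a series that runs from mature oocytes to expanded blastocysts: 4 of 2-cell embryos (2C) and 4 of expanded blastocysts (ExpB). Of 30186 genes in the deposited table, the 12877 with an FPKM (fragments per kilobase of gene, scaled to the library's total) of at least 1 in at least 2 of these 8 libraries were tested. All embryos of both groups were produced in vitro: mature oocytes were inseminated in BO-IVF medium with capacitated sperm for 16 h at 38.5 ℃ and the zygotes were grown in BO-IVC medium. Whole embryos were lysed directly, and polyadenylated RNA was amplified as cDNA by Smart-seq2, which copies full-length transcripts from very small inputs. The labels name neither breed nor age, give no number of embryos per library, and do not say whether the 4 libraries of a group came from separate cultures, so p-values here reflect how libraries of a group scatter, and that scatter may be technical only. Blastocysts had also been in culture for longer, and stage and time in culture cannot be told apart.

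A 2-cell embryo lives on messenger RNA and protein laid down while the oocyte grew. Many of those transcripts are kept with short poly(A) tails, are adenylated when they are needed, and are then stripped of their tails and degraded as the embryonic genome is switched on, which in sheep happens several cleavages after the 2-cell stage. The expanded blastocyst is the product of that switch: a pumping epithelium, the trophectoderm, surrounds a fluid cavity and an inner cell mass that holds the pluripotent epiblast and the primitive endoderm. Because the libraries were made from polyadenylated RNA, a change in the amount of a transcript and a change in its tail cannot be told apart in these values. In bulk libraries, fewer cells of a type and less RNA per cell cannot be told apart either.

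The 2C libraries held between 32.2 and 35.3 and the ExpB libraries between 19.3 and 25.4 assigned reads, in units of 1e6, as recovered from the steps of the deposited values. Libraries of a group resembled each other closely, with Pearson's r of log2(FPKM + 1) across the tested genes of 0.975 to 0.992 among 2C and 0.969 to 0.986 among ExpB libraries, against 0.402 to 0.507 between the groups. Genes are not independent replicates, and these coefficients describe the libraries only. The FPKM of a library summed to 419071 to 431265 at 2C and to 617281 to 682165 at ExpB, so the choice of scale moves every gene: the median difference over all tested genes was 0.36 on the deposited scale, -0.10 after rescaling to equal sums (TPM), 0.16 after median-ratio scaling and 0.11 after quantile normalization. Differences below are ExpB minus 2C means of log2(FPKM + 1) with their SE, on the deposited scale unless another is named.

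Some 2C libraries carried more RNA of several markers of cumulus and granulosa cells, the somatic cells around the egg. Of a list of 22 such markers 13 were tested, with 3 higher and 7 lower at ExpB, beside 37.5% and 28.9% of all tested genes. The 21 in the deposited table summed to an FPKM of 92.5 to 313 at 2C and 184 to 426 at ExpB. LUM, which encodes the matrix proteoglycan lumican, was at 134, 179.9, 61.1 and 37.4 at 2C and 1.71, 3.76, 0.904 and 0.434 at ExpB. TNFAIP6, a matrix protein of the expanded cumulus, was at 49.4, 41, 17.3 and 1.28 at 2C and 0.0358, 0, 0 and 0 at ExpB. Both were highest in 2C replicates 1 and 2, as was the steroidogenic enzyme gene CYP11A1 (5.83, 7.36, 0.87 and 1.19). The steroidogenic genes STAR (1.89, 2.69, 1.53 and 2.89 at 2C) and CYP19 (0.99, 0.477, 1.03 and 1.13 at 2C) were highest in replicate 4. Of the 13 markers, 8 were higher in both of 2C replicates 1 and 2 than in both of the others. This split of the 2C libraries was chosen after the values were seen. How often other tested genes show it was not counted. Of the defining granulosa markers, FSHR reached 2.90 in 2C replicate 2 and stayed below 1 in the others, and AMH did not exceed 0.0518 in any of the 8. The part of these cells in the results was not tested beyond leaving out libraries. At ExpB the sum of the list was mostly GATM, an enzyme of creatine synthesis, at 154, 388, 317 and 343. Leaving out 2C replicates 1 and 2 together gave 4885 genes higher, 3624 lower and 1683 equal, close to the counts from all 8 libraries given next. Of blood cell markers, PTPRC reached at most 0.337 and HBB was at 20.3 in 2C replicate 2 and below 1 elsewhere. The 12 blood cell markers in the deposited table summed to an FPKM of 39.1 to 161 at 2C and 4.21 to 8.82 at ExpB. Only 4 were tested, with 1 higher and 1 lower, beside 37.5% and 28.9% of all tested genes. The sperm protamine gene PRM1 reached at most 0.564. Other sperm markers were detected: 6 of the list were tested, with 2 higher, 0 lower and 1 equal. These counts stand beside 37.5%, 28.9% and 15.4% of all tested genes. The equal one was ODF2, with means of 4.78 at 2C and 4.76 at ExpB.

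Of the tested genes, 66.4% differed between the ends of preimplantation development. In limma's test across all 12877 genes, with a Benjamini-Hochberg adjusted p under 0.05 and a difference of at least 1, 4833 genes (37.5%) were higher and 3719 (28.9%) were lower in expanded blastocysts. All 4 ExpB libraries lay above all 4 2C libraries for 5953 genes (46.2%), and all 2C libraries lay above all ExpB libraries for 4718 (36.6%), so that the groups were apart in either direction for 82.9%. The median difference was 2.02 among the genes called higher and -2.06 among those called lower. A difference of at least 5 was found for 250 genes upward and 218 downward. Among the called genes, 106 had groups that overlapped. A further 1985 genes (15.4%) were equal at both ends, meaning that the 95% interval of the difference lay within -1 to 1 and that the mean FPKM was at least 1 in both groups. The remaining 2340 genes (18.2%) were neither called nor equal.

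**Figure D1:**
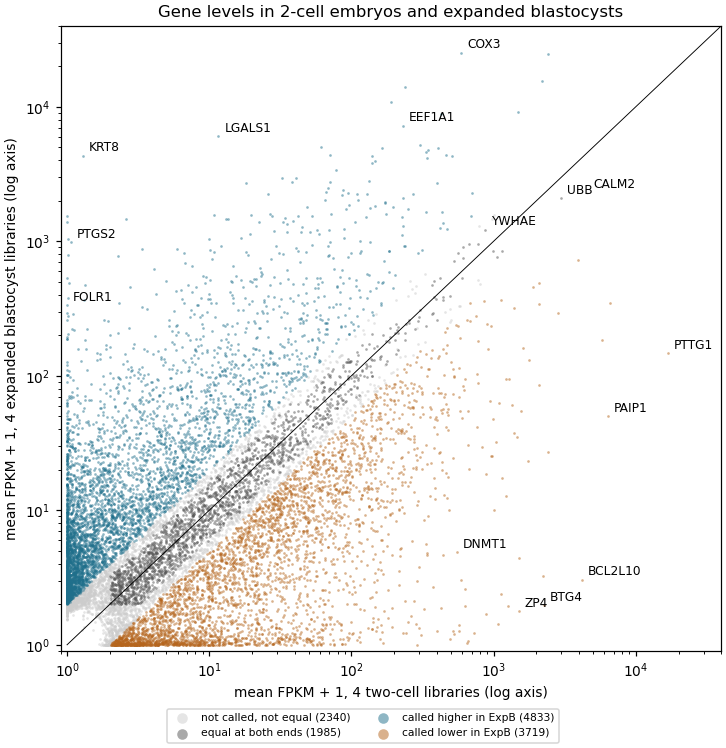
Mean FPKM + 1 of each of the 12877 tested genes in the 4 2C libraries (horizontal, log axis) and the 4 ExpB libraries (vertical, log axis), coloured by call; the line marks equal levels. KRT8 and PTGS2 lie near the left edge and BCL2L10, BTG4 and ZP4 near the lower edge, while UBB and YWHAE lie near the line.

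Part of the contrast was between genes detected in every library of one group and in none of the other. A group of 2117 genes was below an FPKM of 1 in every 2C library and at or above it in every ExpB library, and 285 of them were listed at 0 in all 2C libraries. In the other direction, 1329 genes were at or above 1 in every 2C library and below it in every ExpB library, 116 of them listed at 0 in all ExpB libraries. At or above 1 in all 8 libraries were 6425 genes. The number of genes detected at an FPKM of at least 1 was 9562, 9211, 9103 and 8972 in the 2C libraries and 10980, 10579, 10499 and 10363 in the ExpB libraries. The groups did not overlap, and the means of 9212 ± 253 and 10605 ± 265 (SD, n = 4 each) differed by 1393 genes (two-sided exact permutation test, p = 0.0286, the smallest that the 70 assignments of 4 against 4 allow). The ExpB libraries were the ones with fewer reads. On the TPM scale the difference was 580 genes.

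The abundant end of the transcriptome was almost wholly exchanged. Of the 50 genes with the highest mean FPKM at 2C and the 50 at ExpB, 5 were shared: ATP6, CALM2, LOC114112489, ND4 and UBB. The 2C list was led by PTTG1, which encodes securin, the inhibitor of sister chromatid separation, at 17791, 17673, 15523 and 16366 at 2C and 103, 169.6, 152 and 161 at ExpB. Behind it came CKS1B, a subunit of cyclin-dependent kinases (6633 ± 446 at 2C and 347 ± 53.4 at ExpB, SD, n = 4 each), PAIP1, a partner of poly(A)-binding protein (6337 ± 1205 at 2C and 48.9 ± 9.87 at ExpB), and MAGOH, a core protein of the exon junction complex (5778 ± 1541 at 2C and 182 ± 38.9 at ExpB). All 4 of these leaders were lower in every ExpB library than in any 2C library, with differences of -6.86 for PTTG1, -4.26 for CKS1B, -6.99 for PAIP1 and -4.97 for MAGOH. The ExpB list was led by mitochondrial transcripts and LOC114112489, followed by the elongation factor gene EEF1A1 (229 ± 11.8 at 2C and 7229.7 ± 716 at ExpB), the lectin gene LGALS1 and the cytoplasmic actin gene ACTG1 (304 ± 38.2 at 2C and 5186 ± 358 at ExpB). Ribosomal protein genes held none of the 50 highest places at 2C and 21 at ExpB, mitochondrially encoded genes 2 and 7, and genes of the oocyte list 4 and 0. The 50 highest genes took 26.3% to 26.9% of the summed FPKM at 2C and 36.9% to 41.2% at ExpB.

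The 12 largest increases among named genes included 3 keratin genes. KRT8, a keratin of simple epithelia, stood at an FPKM of 0.714, 0.365, 0.0342 and 0.0339 at 2C and 5424, 2556, 4950.3 and 4324 at ExpB. Its partner keratin KRT18 was at 0, 0.0441, 0 and 0 at 2C and 1371, 419, 740.3 and 633 at ExpB. No 2C library reached 1 for either gene, and the differences were 11.69 ± 0.25 and 9.48 ± 0.29 (limma adjusted p = 9.9e-11 and 5.5e-10). PTGS2, the inducible prostaglandin synthase, was at 0.179, 0.0714, 0 and 0 at 2C and 1186, 1006, 1009 and 735 at ExpB, a difference of 9.84 ± 0.16. FOLR1, a folate receptor, was listed at 0 in all 2C libraries and was at 374, 283, 355 and 321 in the ExpB libraries. The lectin LGALS1 was measurable at both ends, at 14.5, 14.2, 5.68 and 7.84 at 2C and 6951, 5282, 6005 and 5879 at ExpB, and rose by 9.11 ± 0.27. Also among the 12 largest increases were GDPD2 (a glycerophosphodiester phosphodiesterase, 8.90), FXYD4 (a regulator of the sodium pump, 8.40), COTL1 (an actin-binding protein, 8.33), GCSH (a protein of the glycine cleavage system, 8.12), ENPP3 (an ectonucleotide pyrophosphatase, 8.09), KRT19 (8.07) and C14H19orf33 (9.37). GCSH differed among ExpB libraries, at 362, 1121, 924 and 1120.2, with replicate 1 lowest.

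The 12 largest decreases included 6 genes of the oocyte list, BTG4, ZP4, ZP2, KPNA7, NLRP14 and ACCSL. BCL2L10, an anti-apoptotic BCL2 relative abundant in oocytes, was at 3354, 3923, 4863 and 4529 at 2C and 0.727, 1.07, 5.25 and 1.07 at ExpB, a difference of -10.63 ± 0.36 (limma adjusted p = 9.8e-10). BTG4, the adaptor that brings the CCR4-NOT deadenylase to maternal messages, was at 1950.3, 2192, 2587 and 2257 at 2C and 0.506, 0.785, 2.12 and 0.48 at ExpB and fell by 10.22 on the log2 scale. The groups of both genes lay far apart. The zona pellucida gene ZP4 was at 1037, 1568, 1643 and 1738 at 2C and 0.304, 0.416, 1.85 and 0.531 at ExpB. Its relative ZP2 was at 1120.3 ± 107 at 2C and 1.39 ± 1.44 at ExpB, and their differences were -9.77 ± 0.26 and -9.03 ± 0.31. The other genes of the 12 largest decreases were KPNA7 (an oocyte importin, -9.08), NLRP14 (an oocyte NLR protein, -8.84), ACCSL (-8.79), KHDC1 (-8.73), C2H2orf66 (-8.68), ZC2HC1A (-8.42), FAM111B (-8.36) and CIART (a repressor of the circadian clock, -8.02). At ExpB, the values of BCL2L10, BTG4, ZP4, ZP2, KPNA7, NLRP14 and ACCSL were highest in replicate 3.

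Oocyte and maternal-effect genes fell nearly as a block. Of 37 tested, 36 were lower and 1 was higher, with a median difference of -5.14, beside 28.9% lower and a median of 0.36 over all tested genes. The 39 listed genes in the deposited table summed to an FPKM of 9924 to 11976 at 2C and 78.8 to 111 at ExpB. The share of reads of these 39 fell from between 1.96% and 2.45% to between 0.0170% and 0.0214%. The growth factor genes of the oocyte, GDF9 and BMP15, were at 399, 637, 694 and 779 at 2C and 1.32, 1.03, 3.26 and 0.855 at ExpB and at 199, 257, 272 and 309.7 at 2C and 0.151, 0.0572, 2.14 and 0.229 at ExpB respectively. In both, ExpB replicate 3 was the highest of its group. The kinase gene MOS, which holds the egg at metaphase, was at 321 ± 53.1 at 2C and 0.858 ± 1.08 at ExpB (SD, n = 4 each). The exception was OTX2, a homeobox factor of the oocyte that is also known from early epiblast, at 0.32, 0.056, 0.0276 and 0 at 2C and 6.35, 12, 8.03 and 11.9 at ExpB and higher by 3.23 ± 0.20. NOBOX and GPR3 did not pass the filter, with FPKM of at most 0.675 and 0.797 at 2C and at most 0.0404 and 0.0734 at ExpB.

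Genes known from genome activation were mostly higher: 8 of 11 tested, with 1 lower and a median of 2.50, beside 37.5% higher and 28.9% lower of all tested genes. The phosphate transporter SLC34A2 rose by 7.62 ± 0.13, the T-box factor TBX3 by 5.49 ± 0.11, the elongation factor subunit SUPT4H1 by 5.06 ± 0.32 and DPPA2, a chromatin factor of early embryos, by 4.46 ± 0.16. DPPA2 was listed at 0 in all 2C libraries and was at 17.8, 17.1, 23 and 27.7 at ExpB. The heat shock gene HSPA1A was the member that fell, from 4.59 to 0.635 in mean FPKM. ZSCAN4, KLF17, DPRX and CCNA1 did not pass the filter and stayed below 1 in all 8 libraries.

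Trophectoderm genes had the highest median difference of the lists of blastocyst lineages. Of 32 tested, 28 were higher and 3 were lower, with a median of 2.70, beside 37.5% higher and 28.9% lower of all tested genes. The summed FPKM of the 37 listed genes in the deposited table was 219 to 284 at 2C and 6355 to 11361 at ExpB. The lineage factor CDX2 was listed at 0 in the 2C libraries and was at 10, 1.76, 4.08 and 3.19 at ExpB, with replicate 1 highest. GATA3, a driver of trophectoderm genes, was at 2.09, 3.44, 2.91 and 3.18 at 2C and 100.1, 83.2, 97.1 and 75.9 at ExpB, a difference of 4.53 ± 0.15. The 3 that fell were ID3, an inhibitor of helix-loop-helix factors, at 101, 143, 122 and 191 at 2C and 0.398, 0.604, 0.0786 and 0.151 at ExpB, TFAP2B (-1.72) and the Hippo coactivator YAP1 (-1.34). The groups of ID3 did not overlap, and its difference was -6.72 ± 0.21. EOMES, a trophoblast factor in the mouse, did not exceed 0.209 in any of the 8 libraries, and ELF5 and GCM1 did not exceed 0.865 and 0.211.

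Inner cell mass and pluripotency genes were higher for 17 of 21 tested, lower for 1 and equal for 3, with a median of 2.32. Of all tested genes, 37.5% were higher, 28.9% lower and 15.4% equal. POU5F1, the core pluripotency factor, was at 1.01, 1.46, 1.22 and 1.77 at 2C and 43.1, 27.8, 30.7 and 39.4 at ExpB. NANOG, its partner in the epiblast, was above 0 in 1 of the 2C libraries and at 11.1, 15.1, 25.8 and 26.4 at ExpB. ZFP42, KLF5 and TDGF1 rose by 6.69 ± 0.16, 5.85 ± 0.17 and 4.51 ± 0.27. SOX2, a defining marker of the inner cell mass, was listed at 0 in all 2C libraries and in 2 of the ExpB libraries and reached at most 0.20. FGF4, DNMT3L, KLF17 and NR5A2 of the list did not pass the filter either. They reached at most 0.298, 0.274, 0.967 and 1.55 at ExpB. STAT3, the transducer of LIF signalling, was the member that fell, from 53.5 ± 3.82 to 3.46 ± 0.591. GDF3, SALL4 and LIN28A were equal at both ends. GDF3, a TGF-beta family ligand, was at 70.2, 92.6, 91 and 118 at 2C and 75.6, 66.3, 116 and 121 at ExpB.

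Primitive endoderm genes were higher for 14 of 19 tested and lower for 2, with a median of 2.30. Over all tested genes 37.5% were higher and 28.9% lower. The endocytic adaptor DAB2 rose most, at 6.28, 3.96, 1.58 and 0.496 at 2C and 656, 538, 767 and 537 at ExpB. DAB2 is also in the trophectoderm list and was counted in both. Behind it came the apolipoprotein APOA1 (6.13), the laminin chain LAMB1 (5.57) and the Wnt agonist RSPO3 (5.16). GATA6 was at 0.383, 0.0344, 0.0678 and 0.101 at 2C and 33.7, 24.8, 25.9 and 26.9 at ExpB. The later markers were low: SOX17 was at 1.2, 1.75, 1.21 and 0.683 at ExpB and GATA4 at 1.06, 1.04, 0.968 and 1.31, and GATA4 was not called (0.57 ± 0.13), although its groups did not overlap and it was called higher with a pseudocount of 0.1 (1.26) and by limma-voom on recovered reads (1.47). The basement membrane gene NID2 was among the 2 that fell, with a difference of -3.35. Genes that a ruminant conceptus is known to secrete split, with 6 of 11 tested higher and 2 lower, beside the 37.5% and 28.9% above. Interferon tau, the signal by which the ruminant conceptus is recognised, was barely detected: IFNT5, IFNT6 and TP-1 were listed at 0 in every 2C library and stayed below 1 in every ExpB library, where IFNT5 was at 0.436, 0.91, 0.732 and 0.331. The prostaglandin E synthase gene PTGES was listed at 0 at 2C and was at 53.8, 45.8, 40.6 and 34.4 at ExpB. The 2 secreted genes that fell were SPP1 (69.4, 54.2, 5.51 and 3.91 at 2C) and TIMP1 (640.04, 809, 142 and 122 at 2C), and both were highest in the 2C libraries with the most cumulus marker RNA. Leaving out 2C replicates 1 and 2, neither was called, at -0.81 for SPP1 and -0.88 for TIMP1.

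Genes of the blastocyst epithelium moved in both directions. Beside the counts of its lists, 37.5% of all tested genes were higher, 28.9% lower and 15.4% equal. Of 33 tested genes of junctions and polarity, 21 were higher, 5 were lower and 4 were equal, with a median of 1.78. The tight junction gene CLDN6 was at 1.72, 2.42, 2.52 and 3.33 at 2C and 183, 127, 158 and 157 at ExpB. The desmosomal cadherin DSC2, the polarity gene CRB3 and the claudin gene CLDN4 rose by 5.12 ± 0.13, 4.43 ± 0.25 and 4.36 ± 0.23. Among those lower were adaptor genes: PALS1, a partner of CRB proteins, was at 201, 179.99, 194 and 187 at 2C and 11.4, 13.2, 11.8 and 13 at ExpB, and the catenin genes CTNNB1 and CTNNA1 fell, with differences of -1.57 and -1.38. For pumps and channels of the cavity, 9 of 13 were higher, 2 were lower and 2 were equal, with a median of 2.91. Beta subunits of the sodium pump did not move alike. ATP1B3 was at 11.1, 7.99, 9.43 and 6.64 at 2C and 276, 418, 454 and 329.6 at ExpB, a difference of 5.24 ± 0.20. The beta subunit gene ATP1B1 was equal, at 6.45, 3.93, 2.96 and 3.79 at 2C and 6.45, 4.38, 4.29 and 4.76 at ExpB (0.20 ± 0.20). The regulator FXYD4 was at 0.414, 0.504, 0.149 and 0.246 at 2C and 728, 324, 542 and 309 at ExpB, and the aquaporin AQP3 was listed at 0 at 2C and was at 19.8, 7.02, 9.56 and 11.9 at ExpB. CFTR, a chloride channel, fell from 32.1 ± 2.53 to 0.621 ± 0.497.

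Ribosomal protein genes rose together. Of 80 tested, 79 were higher, none was lower, and the median difference was 4.51, where 37.5% of all tested genes were higher. RPL34 was at 27.7, 10.2, 7.54 and 3.19 at 2C and 1998, 1316, 1344 and 1197 at ExpB. Their share of reads was 0.541%, 0.403%, 0.359% and 0.347% in the 2C libraries and 9.43%, 6.63%, 7.02% and 7.12% in the ExpB libraries. Replicate 1 was the highest of both groups, and the groups did not overlap. RPL26L1, a relative of RPL26, was the member that did not rise, at 119, 61.6, 48.4 and 46.1 at 2C and 73.1, 52.4, 45 and 43.5 at ExpB, and it was equal. Genes that build ribosomes were near the background: of 71 tested biogenesis factors, 26 were higher, 15 were lower and 22 were equal, beside 37.5%, 28.9% and 15.4% of all tested genes. Their median was 0.42, and -0.07 on the TPM scale. The snoRNP proteins NHP2 and FBL rose by 3.62 ± 0.19 and 3.59 ± 0.14. The assembly factors LTV1 and UTP20 and the polymerase I cofactor TAF1A fell, with differences of -3.19, -2.86 and -3.23. The nucleolar proteins NPM1, NOP58 and NCL were abundant and equal, with NOP58 at 151, 245, 221 and 218 at 2C and 178, 236, 216 and 245 at ExpB.

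Genes of energy metabolism were also mostly higher. The counts that follow stand beside 37.5% higher and 28.9% lower of all tested genes. Of 13 mitochondrially encoded protein genes 12 were higher, with a median of 4.31, and their share of reads went from between 0.574% and 0.894% at 2C to between 9.29% and 10.9% at ExpB. COX1, a catalytic subunit of cytochrome oxidase, was at 222, 234, 105 and 189 at 2C and 10438, 11002, 12615 and 9371 at ExpB. COX2 and COX3 differed by 5.93 ± 0.29 and 5.46 ± 0.26. CYTB was the one not called, at 355, 954, 719 and 1111 at 2C and 1156, 1066, 1519 and 1450.4 at ExpB, with a difference of 0.83 ± 0.32 that was called without 2C replicate 4 (1.04). Nuclear-encoded subunits of the respiratory chain were higher for 53 of 58 tested and lower for 1, with a median of 2.72. The ATP synthase subunit ATP5ME and the complex I subunit NDUFA1 rose by 6.95 ± 0.47 and 5.41 ± 0.24, and NDUFV3 fell, with a difference of -2.03. For glycolysis and glucose uptake, 14 of 18 were higher and 1 was lower, with a median of 3.30. ENO1, the enolase, was at 9.89, 6.15, 4.69 and 5.48 at 2C and 648, 276, 383 and 375 at ExpB, and the glucose transporter SLC2A1 was at 8.28, 6.84, 7.71 and 8.8 at 2C and 92.6, 88, 102 and 119 at ExpB. The lactate dehydrogenase subunit LDHA was the one that fell, at 314, 445, 562 and 538 at 2C and 12.4, 22.8, 15.1 and 21.6 at ExpB. Cholesterol synthesis genes moved in both directions: 14 of 21 genes were higher and 3 were lower. HMGCS1, a synthase early in the pathway, fell from 136 ± 16.6 to 13.7 ± 3.06. MVD and IDI1 rose by 3.32 ± 0.14 and 3.30 ± 0.22, and the regulator INSIG1 fell, with a difference of -1.85.

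Factors that store, translate and destroy maternal messages were lower at ExpB for 27 of 57 tested, higher for 10 and equal for 13. Their median was -0.86. Beside this list and the polyadenylation factors that follow, 28.9% of all tested genes were lower, 37.5% higher and 15.4% equal. CPEB1, which binds the cytoplasmic polyadenylation element, was at 72.1, 65.7, 64.3 and 79 at 2C and 0.303, 0.241, 1.66 and 0.283 at ExpB. The egg cap-binding protein EIF4E1B and the storage factor ZAR1L fell, with differences of -4.86 and -5.14. Among those that rose were YBX1, a general packaging protein of messages (46.5 ± 22.8 at 2C and 413 ± 47.8 at ExpB) and YTHDF2, a reader of methylated adenosine (3.18). DDX6, a helicase of RNA granules, was equal, at 4.18, 4.8, 5.73 and 6.65 at 2C and 8.8, 6.31, 7.49 and 7.16 at ExpB. Nuclear cleavage and polyadenylation factors showed no common direction, with 7 of 24 higher, 6 lower and 8 equal and a median of 0.02, which was -0.55 on the TPM scale, -0.21 after median-ratio scaling and -0.03 after quantile normalization. CSTF1 and the poly(A) polymerase PAPOLG were at 607, 895, 746 and 828 at 2C and 22.4, 56.4, 39 and 45.6 at ExpB and 76.5, 108, 104 and 111 at 2C and 3.03, 3.17, 3.29 and 3.3 at ExpB. CPSF7 and the poly(A)-binding protein PABPC1 rose by 2.87 ± 0.13 and 2.13 ± 0.11, and PAPOLA and PABPC4 were equal. Of 67 core spliceosome genes, 25 were higher, 14 were lower and 17 were equal, with a median of 0.34, near the 37.5% higher and the median of 0.36 of all tested genes. On the TPM scale the spliceosome count was 15 higher and 19 lower and the median was -0.13. PHF5A and SNRPB rose by 3.42 ± 0.20 and 2.87 ± 0.19, and SNRPB2 fell, with a difference of -3.21.

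Genes of DNA methylation moved in opposite directions. DNMT1, the maintenance methyltransferase, was at 520.5, 562, 568 and 559 at 2C and 4.69, 3.17, 3.5 and 4.15 at ExpB. DNMT3A, which methylates new sites, was at 8.11, 7.55, 5.93 and 6.29 at 2C and 188, 112, 165 and 162 at ExpB. The differences were -6.84 ± 0.13 and 4.29 ± 0.17 (limma adjusted p = 6.4e-11 and 3.6e-09). UHRF1, the cofactor that brings DNMT1 to replicated DNA, fell from 48 ± 0.857 to 2.78 ± 0.838. Over the whole list of 56 genes, 23 were higher, 12 were lower and 12 were equal, with a median of 0.64. The shares of 41.1% higher and 21.4% lower stand beside 37.5% and 28.9% of all tested genes. On the TPM scale 19 were higher and 16 lower, with a median of 0.12. KDM1B, a histone demethylase of the growing oocyte, and RBBP7, a histone-binding subunit, fell, with differences of -5.14 and -4.49, and BMI1 and KDM5B rose by 3.89 ± 0.29 and 3.20 ± 0.12. HDAC2 and CTCF were equal. Of 16 histone variants and chaperones, 3 were higher, 6 were lower and 5 were equal, beside 37.5%, 28.9% and 15.4% of all tested genes. The egg chaperone NPM2 fell, with a difference of -7.44 and the variant H2AZ1 rose from 58.2 ± 33.5 to 1124 ± 194, while the chaperone SET stayed equal at 233, 288, 240.5 and 252 at 2C and 214, 244, 259 and 273 at ExpB. Few imprinted genes passed the filter. MEST and PLAGL1, expressed from the paternal allele in mammals studied, fell, with differences of -2.89 and -2.73, and PEG3 rose by 2.88 ± 0.21. Of 8 tested genes of this kind 3 were higher and 2 lower, near the 37.5% and 28.9% of all tested genes, and under median-ratio and quantile scaling 2 were higher and 3 lower. Of 6 tested genes listed here for expression from the maternal allele in some mammals, 2 were higher and 1 was lower. The lower one was ZIM2, which went from 61 ± 9.4 to 0.139 ± 0.0818. Alleles cannot be read from these values.

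Cell cycle genes were more often lower than higher at ExpB. Of 52 tested genes of mitosis and its control, 24 were lower, 9 were higher and 11 were equal, with a median of -0.90. Of 46 DNA replication genes, 21 were lower, 4 were higher and 8 were equal, with a median of -0.93. Of all tested genes 28.9% were lower and 37.5% higher. The mitotic kinase AURKA was at 792, 879, 903 and 937 at 2C and 19.1, 16.9, 16.2 and 18 at ExpB, and PCNA, the sliding clamp of replication, was at 991, 1344, 1321 and 1442 at 2C and 51.7, 117, 86.9 and 119 at ExpB. Both fell, and their differences were -5.57 and -3.81. The ribonucleotide reductase subunit RRM2 rose from 1.11 ± 0.355 to 14.5 ± 3.98 and the cyclin-dependent kinase inhibitor CDKN1A by 2.40 ± 0.23. CDK2 and the topoisomerase TOP2A were equal. Proteasome genes divided within the core particle: PSMA5 and PSMA4 fell, with differences of -3.80 and -3.36, while PSMA1 and PSMA2 rose by 3.91 ± 0.30 and 3.20 ± 0.34. In all, 20 of 40 were higher, 4 were lower and 8 were equal, and on the TPM scale 16 were higher and 8 were lower. PSMC6 was equal. Stress and p53 target genes were higher for 23 of 36 tested and lower for 2, with a median of 2.13. The endoplasmic reticulum chaperone HSPA5 was at 36.3, 24.5, 19.9 and 19.1 at 2C and 1730.5, 2450.3, 2365 and 2364 at ExpB, and ASNS, the asparagine synthetase, was at 2.86, 2.6, 2.17 and 1.76 at 2C and 241, 321, 329 and 398 at ExpB. PMAIP1 and ATF3 rose by 4.84 ± 0.25 and 4.55 ± 0.23, MDM2, the ubiquitin ligase that restrains p53, fell, with a difference of -2.12, and DDIT3 was equal.

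**Figure D2:**
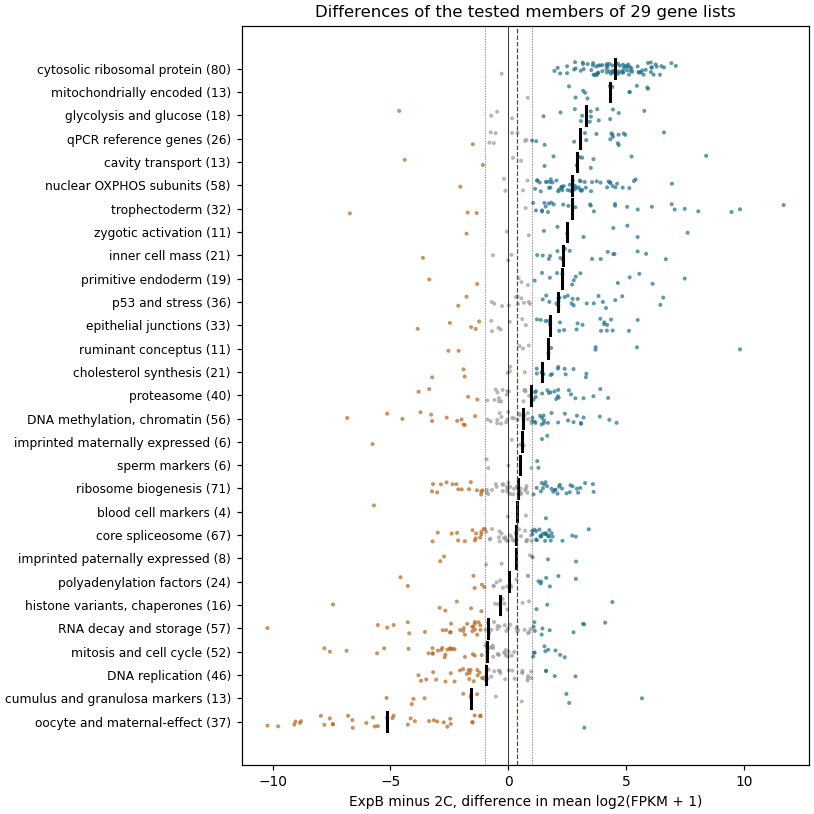
Difference in mean log2(FPKM + 1), ExpB minus 2C, of each tested member of 29 gene lists (points; blue at 1 or more, brown at -1 or less, grey between), with the list's median as a black bar and the number tested in parentheses. The dashed green line marks the median of all tested genes, 0.36; ribosomal protein genes have the highest median, 4.51, and oocyte genes the lowest, -5.14.

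The ratio between relatives within a library is not moved by multiplying the library by a constant, apart from the pseudocount. For 23 pairs of related genes, in most of which the first member is known from the germ line or the egg, the log2 ratio of (FPKM + 1) was taken in each library. It was lower in all ExpB than in all 2C libraries for 19 pairs, higher for 2 and overlapping for 2. Among single tested genes, 82.9% had groups that did not overlap, and no such share was computed for other pairs. Several first members, WEE2, BTG4 and NPM2 among them, are also in the oocyte list, where 36 of 37 tested genes fell. In 8 of the 19 the leading member changed in all libraries, as it did in both pairs whose ratio rose. The kinases WEE2 and WEE1, which hold CDK1 inactive in the egg and in somatic cells, had a ratio of 7.09 ± 0.20 at 2C and -2.92 ± 0.21 at ExpB (SD, n = 4 each). Behind this ratio, WEE2 was at 291, 315, 344 and 239 at 2C and 0.636, 0.368, 0.159 and 0.178 at ExpB, and WEE1 at 1.14, 1.3, 1.14 and 1.11 at 2C and 9.4, 9.67, 7.48 and 9.62 at ExpB. The ratio of BTG4 to its relative BTG1 went from 8.77 ± 0.75 to -3.11 ± 0.82. For the cohesin subunits SMC1B and SMC1A it went from 3.91 ± 0.24 to -3.72 ± 0.29, and for the importins KPNA7 and KPNA2 from between 2.71 and 3.23 to between -4.53 and -3.15. The dioxygenases TET3 and TET1, which oxidise methylcytosine, went from 0.68 ± 0.22 to -5.82 ± 0.19. PATL2 and PATL1, ELAVL2 and ELAVL1, and UCHL1 and UCHL3 were the other pairs of the 19 whose leader changed. Each pair without overlap had a two-sided exact permutation p of 0.0286, the smallest that 4 against 4 allows.

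The partner that stayed was not always the one that rose. ELAVL1, a stabiliser of AU-rich messages, was equal at both ends, at 25.6, 25.8, 24.9 and 26.9 at 2C and 24.2, 27.8, 29.3 and 29.6 at ExpB, while ELAVL2 fell from 101 ± 6.7 to 1.97 ± 0.553. NPM1 and LSM14A were also equal beside relatives that fell. The reverse was seen for 2 pairs. ZFP36L2, a decay factor of AU-rich messages, passed ZFP36L1, with a ratio of -3.17 ± 0.57 at 2C and 1.91 ± 0.08 at ExpB. LDHB passed LDHA, from -1.39 ± 0.33 to 6.70 ± 0.54, and LDHB itself was at 161, 177, 172 and 179.98 at 2C and 1997, 1871, 2200.03 and 1627 at ExpB. The ratio of REC8 to RAD21 overlapped, with REC8 low in every library, and that of SLC2A8 to SLC2A1 overlapped as both genes rose, its change of -0.60 turning to 0.46 with a pseudocount of 0.1. AURKC remained above AURKB at both ends, at 6.19 ± 0.22 and 2.50 ± 0.47, although the ratio fell. How reads shared by near-identical copies were counted is not given in the sources used here, so values of close relatives are uncertain to that extent.

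**Figure D3:**
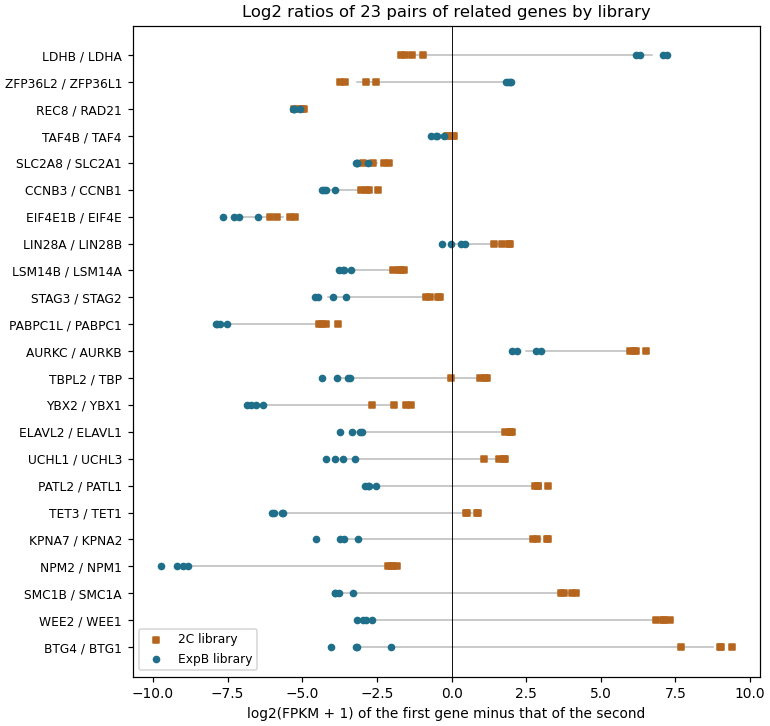
Log2 ratio of (FPKM + 1) of the first to the second gene of 23 pairs in each 2C (brown squares) and each ExpB library (blue circles), ordered by the change in the mean ratio (grey line); the vertical line marks equal levels. The ratio of WEE2 to WEE1 goes from a mean of 7.09 to -2.92, and those of ZFP36L2 to ZFP36L1 and LDHB to LDHA move to the right.

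Genes at the same level at both ends numbered 1985 of 12877, or 15.4%. Equal here limits the size of a difference and does not exclude a small one: PRDX1, a peroxiredoxin, differed by 0.55 ± 0.13 with an adjusted p of 0.0022 in limma and an interval of 0.26 to 0.85. By level, the class was led by the ubiquitin gene UBB, at 3222, 2992, 2951 and 2740.3 at 2C and 1739, 1753, 2479 and 2348 at ExpB. YWHAE, a 14-3-3 adaptor protein, was at 852, 931, 881 and 812 at 2C and 947, 1215, 1162 and 1553 at ExpB. The chromatin protein HMGB1 was at 731, 692, 609 and 635 at 2C and 811, 823, 983 and 1168 at ExpB. These 3 genes changed by -0.53 ± 0.18, 0.47 ± 0.17 and 0.49 ± 0.16. Next in level were BTF3, NPM1, the ferritin chain FTL, the actin-severing protein DSTN, PRDX1, the retromer subunit VPS29, NDUFAB1, the vesicle GTPase RAB11A and TRMT112. On the TPM scale UBB, BTF3, NPM1, NDUFAB1 and TRMT112 were not equal, with differences of -1.13, -1.04, -0.84, -0.78 and -0.93, whereas YWHAE, HMGB1, DSTN, PRDX1, VPS29 and RAB11A were equal under TPM, median-ratio and quantile scaling. Equality on the TPM scale was also lost for SALL4, TOP2A, RPL26L1, CDK2 and GDF3 (-1.25, -1.04, -0.87, -0.70 and -0.59). Leaving out single libraries ended it for UBB, BTF3, VPS29, HDAC2, CTCF, TFRC and RPL26L1 in some cases, and leaving out 2C replicates 1 and 2 together ended it, among other named genes, for YWHAE (0.50), HMGB1 (0.59) and SALL4 (-0.77). The fit on all 26 libraries, with its wider intervals, ended it for RIOK2, DDIT3, SALL4, HDAC2, CTCF, TFRC, HMGB1 and RPL26L1. Of the 1985 genes, 993 were equal under all 4 scalings tried. By the lists, equal genes included many polyadenylation factors (8 of 24), ribosome biogenesis factors (22 of 71), histone variants and chaperones (5 of 16) and spliceosome genes (17 of 67), and none of 37 oocyte, 32 trophectoderm, 19 primitive endoderm and 13 mitochondrially encoded genes, beside 15.4% of all tested genes. On the TPM scale the first 4 of these lists had 5, 19, 2 and 17 equal genes, beside 1794 of all 12877. There, 1 trophectoderm and 1 mitochondrially encoded gene were also equal.

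Equal ends did not always mean a level path. The stage means of 1212 of the 1985 genes (61.1%) stayed within 1 of the mean of both ends at the 4-cell, 8-cell, 16-cell, morula and early blastocyst stages. A rise of at least 1 above the ends at some stage was seen for 493 genes (24.8%), and 288 of these were highest at the morula and 140 at the early blastocyst. A drop of at least 1 below was seen for 258 (13.0%), with 130 lowest at the morula and 68 at the 16-cell stage, and 22 genes did both. HDAC2, a histone deacetylase, had a mean of 93.7 at 2C, 496 at the morula and 133 at ExpB. RIOK2, a kinase of small-subunit assembly, had means of 82.4, 317 and 97.5 at the same stages. A path within 1 at all stages and equality under all 4 scalings were both met by 568 genes.

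Genes used as references in PCR were equal at both stages about as often as other genes, 3 of 26 beside 15.4% of all tested genes. Of the 26, 17 were higher and 1 was lower, with a median of 3.03. Over all tested genes 37.5% were higher and 28.9% lower, with a median of 0.36. On the TPM scale 14 of the 26 were higher, 5 lower and 5 equal. On that scale 4526 of all 12877 tested genes were higher, 4872 lower and 1794 equal. ACTB, the beta-actin gene, was at 40.8, 14.5, 15.4 and 10.8 at 2C and 923, 456, 369 and 348 at ExpB. GAPDH was at 64.3, 80.1, 64.5 and 74.5 at 2C and 1697, 1063, 1695 and 1925 at ExpB. Neither overlapped between the groups, and the differences were 4.68 ± 0.41 and 4.44 ± 0.20. The variant histone H2AZ1 and the cyclophilin gene PPIA differed by 4.42 ± 0.37 and 3.26 ± 0.17, and the ribosomal protein gene RPLP0 by 2.80 ± 0.17. HPRT1 was lower, at 332, 491, 462 and 484 at 2C and 125, 199, 158 and 143 at ExpB. The equal genes were UBB, POLR2A and TFRC. POLR2A, the large subunit of RNA polymerase II, was at 1.3, 1.63, 1.1 and 1.47 at 2C and 1.74, 1.66, 1.55 and 1.63 at ExpB, and TFRC, the transferrin receptor, had a difference of 0.40 ± 0.23. Neither called nor equal were, among others, YWHAZ, TBP, GUSB and EIF4A2, with differences of 0.76 ± 0.15, -0.61 ± 0.19, 0.72 ± 0.16 and -0.80 ± 0.14. The scale decided several of these: EIF4A2 was called lower under TPM, median-ratio and quantile scaling (-1.40, -1.05 and -1.52) and TBP under TPM (-1.21), while YWHAZ was equal under TPM and median-ratio scaling (0.18 and 0.52). SUZ12 was called higher at 1.01 ± 0.17 but not under TPM or median-ratio scaling (0.44 and 0.77). POLR2A and TFRC were equal under all 4 scalings, and UBB was not.

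**Figure D4:**
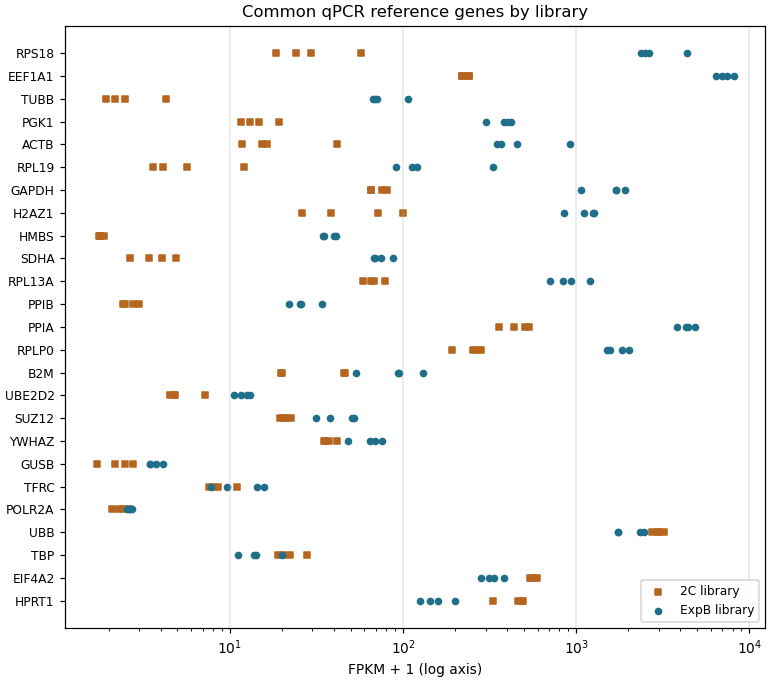
FPKM + 1 (log axis) of tested reference genes in each 2C (brown squares) and each ExpB library (blue circles), ordered by difference. RPS18, EEF1A1 and TUBB lie apart at the top, HPRT1 is lower in every ExpB library at the bottom, and POLR2A, TFRC and UBB lie close between.

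Most called genes passed the midpoint between their 2C and ExpB levels at the morula or the early blastocyst. For each called gene the first stage was found whose mean lay past this midpoint and remained past it. Among the 4833 higher genes this was the 16-cell stage for 547 (11.3%), the morula for 2651 (54.9%), the early blastocyst for 1148 (23.8%) and the expanded blastocyst for 442 (9.15%), with 8 and 37 genes at the 4-cell and 8-cell stages. Among the 3719 lower genes it was the 16-cell stage for 264 (7.10%), the morula for 1973 (53.1%), the early blastocyst for 1043 and the expanded blastocyst for 389 (10.5%). The groups of genes had their own timing within this window. Of 79 ribosomal protein genes 72 passed the midpoint at the morula and none later, and of 53 nuclear respiratory genes 47 did so at the morula. Trophectoderm genes were later, with 15 of 28 at the early blastocyst and 4 at the expanded blastocyst, as were primitive endoderm genes, with 5 of 14 at each. Cholesterol synthesis was late, with 7 of 14 genes at the expanded blastocyst, SQLE among them. Ribosome biogenesis factors were early, with 14 of 26 at the 16-cell stage. Of the 36 oocyte genes that fell, 16 passed at the morula and 17 at the early blastocyst. The order was not tested, and these counts describe stage means of 3 or 4 libraries.

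**Figure D5:**
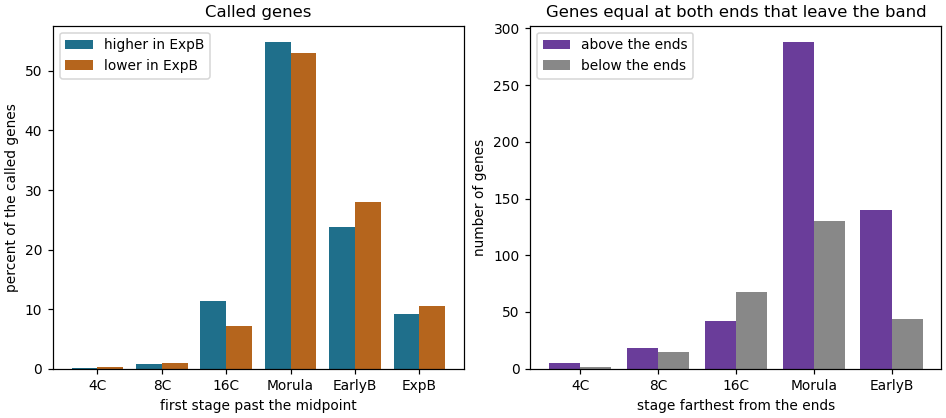
Left, percent of the genes called higher (blue) and lower (brown) in ExpB by the first stage whose mean is past the midpoint between 2C and ExpB and stays there. Right, number of genes equal at both ends that leave the band of 1 around the mean of both ends, by the stage farthest above (purple) or below (grey); the morula holds the highest bar of each kind, with 54.9% and 53.1% on the left and 288 and 130 genes on the right.

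Kinds of RNA other than protein-coding messages took part unequally. Of 11098 tested protein-coding genes, 36.6% were higher and 29.2% lower. Of 568 long noncoding RNA genes, 183 were higher and 239 lower. Small nucleolar RNA genes were higher for 172 of 211 and lower for 3, and small nuclear RNA genes for 61 of 84 and 2. Most small nucleolar RNAs lie in introns of other genes and are not polyadenylated, and whether these reads came from the small RNA or from its host transcript cannot be told from gene values.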

How the data were processed

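Polyadenylated RNA of whole sheep embryos was sequenced after Smart-seq2 amplification, per the labels' protocols. The deposited table gives FPKM per gene and library, and the authors used featureCounts 2.0.1, SAMtools 1.9, HISAT2 2.1.0 and fastp 0.23.4 on the way to it, per the submitters' processing notes, which give no roles. Genome build, annotation and handling of shared reads: not given in the sources used here. All columns were mapped to samples by name. Gene kinds and the names of mitochondrial genes came from RefSeq (ARS-UI_Ramb_v3.0), which matched 25456 of 30186 row names.

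Values were analysed as log2(FPKM + 1), where low genes show smaller changes than their true folds. Genes with an FPKM of at least 1 in at least 2 of the 8 libraries entered a linear model in limma 3.58.1, run under R 4.3.3 (2 group means, eBayes with an intensity trend, two-sided, Benjamini-Hochberg adjustment over all tested genes). Calls needed an adjusted p under 0.05 and a difference of at least 1, and equality a 95% interval within -1 to 1 with a mean FPKM of at least 1 in both groups. The procedure was tested on simulated data. Reads per library were recovered from the steps of the FPKM values. A length that made a gene's values whole reads, up to the rounding of the values, was found for 99.45% of 15766 genes searched. Depth limits the precision of low genes. Python 3.11.15, numpy 2.4.6, pandas 2.3.3 and matplotlib 3.10.9 were used for counts and figures.

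The text names the 12 genes with the largest difference in each direction among non-overlapping called genes with a gene name, up to 4 called genes per direction of each list, members of short lists, the genes of the pairs, the 12 equal genes with the highest levels, and reference genes. Other genes named, such as CKS1B, PAIP1, MAGOH, HDAC2 and RIOK2, were chosen after their values were seen. The gene lists and the comparison were chosen with earlier results of these data known. Alternatives covered the pseudocount, the filter, 4 rescalings, a count model on recovered reads, all 26 libraries in one fit, robust eBayes, a replicate block, each library left out, and, chosen after seeing the data, 2C replicates 1 and 2 left out together. Promoter sequences were not analysed here. Results for some genes are not reported here.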

Additional observations from a re-analysis of the deposited data

Results flagged for a closer look

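In 29 of 408 groups of 4 libraries tested (7.11%), the highest or lowest library lay apart from the other libraries of its group by Dixon's criterion, which chance alone gives in about 1 in 20. 2C replicate 1 lay above the other 2C libraries for INSIG1 (an FPKM of 47.9), KDM1B (an FPKM of 62.8), PLAGL1 (an FPKM of 17.1) and RAD21 (an FPKM of 76.2). 2C replicate 1 lay below the other 2C libraries for BTF3 (an FPKM of 881), CIART (an FPKM of 262), HPRT1 (an FPKM of 332) and TAF1A (an FPKM of 93.2). 2C replicate 2 lay above the other 2C libraries for FSHR (an FPKM of 2.9) and HBB (an FPKM of 20.3). 2C replicate 4 lay below the other 2C libraries for PRDX1 (an FPKM of 515) and STAT3 (an FPKM of 47.8). ExpB replicate 1 lay above the other ExpB libraries for ATP5ME (an FPKM of 2411), C14H19orf33 (an FPKM of 2003), NDUFA1 (an FPKM of 1837), RPS18 (an FPKM of 4395) and TUBB (an FPKM of 106). ExpB replicate 1 lay below the other ExpB libraries for GCSH (an FPKM of 362), HSPA5 (an FPKM of 1730.5) and PSMA2 (an FPKM of 174). ExpB replicate 2 lay above the other ExpB libraries for ZFP36L1 (an FPKM of 8.85). ExpB replicate 3 lay above the other ExpB libraries for BCL2L10 (an FPKM of 5.25), BMP15 (an FPKM of 2.14), CPEB1 (an FPKM of 1.66) and ZP2 (an FPKM of 3.54). ExpB replicate 3 lay below the other ExpB libraries for WEE1 (an FPKM of 7.48). ExpB replicate 4 lay above the other ExpB libraries for CPSF7 (an FPKM of 10.1). The log2 ratio of REC8 to RAD21 was -5.07 in ExpB replicate 3, apart from the other ExpB libraries. The log2 ratio of SLC2A8 to SLC2A1 was -2.81 in ExpB replicate 1, apart from the other ExpB libraries.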

How the results depend on the processing

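The counts of genes higher, lower and equal stayed within 1.5 times of 4833, 3719 and 1985 in the alternatives run, with 3 exceptions. A stricter filter (FPKM of 5 or more in 4 or more libraries) left 7242 genes tested, 2761 higher and 1180 equal, fewer because fewer genes were tested, and no sperm marker passed it, and an interval within -0.5 to 0.5 left 476 equal genes. Scaling moved the balance of calls: 56.5% of calls were higher on the deposited scale and 48.2% on the TPM scale, where 4526 genes were higher and 4872 lower. In all 4 scalings 3731 genes kept the call higher, 3682 lower and 993 equal. Leaving out each library in turn gave 4747 to 4874 genes higher, 3672 to 3776 lower and 1820 to 1990 equal. Same-numbered libraries had correlations of deviations of 0.163, 0.00149, 0.0748 and 0.110. Replicates 1, 3 and 4 matched their own number best, and replicate 2 matched number 4 best. Whether the replicate numbers pair the samples is not given by the labels and cannot be told from these values. With the replicate number as a block, 4840 genes were higher, 3721 lower and 2006 equal. The number of pairs whose ratio fell was 19 or 20 throughout. The depth and the number of embryos per library limit what can be said of genes near an FPKM of 1.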
